A study of Mus musculus with 4 samples.

Results

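The ESR1 peaks around 7 genes long used as readouts of estrogen action in the uterus were compared between mouse uterus and liver. They were chosen by position: a peak counted when its summit lay within 100 kb of the gene span of Pgr, Greb1, Igf1, Wnt4, Myc, Ccnd1 or Ltf, and 82 peaks did so, 68 of the 24836 in the uterus list and 14 of the 6932 in the liver list. The study mapped binding of estrogen receptor alpha, ESR1, by chromatin immunoprecipitation and sequencing (ChIP-seq) of tissue that had been frozen, taken from C57BL/6 females of 8 weeks. Its 4 samples were 1 ESR1 library and 1 input control for each tissue; each control entered through the authors' peak calling. The labels name no transgene, deletion, hormone treatment or cycle stage for either tissue, and the sources used here do not say whether a library held tissue of 1 animal or of several. With 1 library per tissue there is no replicate check, so no p-value is given and the 95% intervals below cover counting error only. In whole tissue, fewer cells with bound receptor and less bound receptor per cell cannot be told apart, and peak lists hold no expression values against which the tissue labels could be checked.

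ESR1 is a nuclear receptor that, once bound by estrogen, attaches to DNA at estrogen response elements and recruits cofactors that change transcription. A full element pairs the half-site AGGTCA with its reverse complement TGACCT across 3 unspecified bases, and many bound sites lie far from gene starts. In the uterus, estrogen drives growth of the epithelium and prepares the tissue for progesterone; the liver also carries the receptor. The 7 genes cover several steps of that response: Pgr encodes the progesterone receptor and Greb1 a cofactor of ESR1, Igf1 and Wnt4 encode secreted signals, Myc and Ccnd1 drive cell division, and Ltf encodes the secreted iron-binding protein lactoferrin.

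Promoter sequence was looked up for these genes to show what the receptor's half-site looks like beside them. RefSeq promoter windows of 300 bases (GRCm38.p6, from 250 bases before to 50 after a start) were found for 5 of the 7 genes, in 6 windows. The half-site, read on both strands, was present in 3 of these 6 windows, 1 each at Greb1, Igf1 and Ltf, and in 16.3% of all 32851 windows. The full element was in none of the 6 and in 0.0213% of all windows. The peak lists use the mm9 build, so no peak was placed on these windows and no overlap is claimed. The windows with a half-site are printed 5′ to 3′ on the strand of the gene, with the half-site in capitals; it starts 88 bases before the start at Greb1 (chr12:16800837-16801136, minus strand), 161 before it at Igf1 (chr10:87860861-87861160, plus strand) and 46 before it at Ltf (chr9:111019042-111019341, plus strand).
Greb1: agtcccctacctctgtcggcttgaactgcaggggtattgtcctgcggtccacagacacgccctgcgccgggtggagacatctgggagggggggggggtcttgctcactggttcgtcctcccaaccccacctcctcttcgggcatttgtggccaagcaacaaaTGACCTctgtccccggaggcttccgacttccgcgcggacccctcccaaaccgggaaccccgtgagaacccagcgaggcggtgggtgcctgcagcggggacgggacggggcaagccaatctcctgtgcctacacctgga
Igf1: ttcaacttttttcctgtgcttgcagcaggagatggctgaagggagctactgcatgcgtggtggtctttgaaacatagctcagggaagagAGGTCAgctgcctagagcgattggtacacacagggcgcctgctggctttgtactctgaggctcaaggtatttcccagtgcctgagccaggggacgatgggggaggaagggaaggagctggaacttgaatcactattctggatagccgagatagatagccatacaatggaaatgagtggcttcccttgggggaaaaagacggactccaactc
Ltf: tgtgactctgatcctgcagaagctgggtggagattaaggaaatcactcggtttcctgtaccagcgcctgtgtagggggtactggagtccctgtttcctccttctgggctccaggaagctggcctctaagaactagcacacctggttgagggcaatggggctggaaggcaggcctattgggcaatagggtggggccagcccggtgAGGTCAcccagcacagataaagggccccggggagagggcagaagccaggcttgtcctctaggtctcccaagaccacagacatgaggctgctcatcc

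Within 100 kb, uterus peaks were dense at 5 of the 7 loci and sparse at Ccnd1 and Ltf (within 200 kb Ltf held 6, Ccnd1 still 1), and Ccnd1 was the locus where liver peaks outnumbered uterus peaks. The 7 windows, each the gene span plus 100 kb on either side, came to 1.80 Mb. They held 37.8 uterus peaks per Mb (Poisson interval 29.3 to 47.9), against 9.72 per Mb over the chromosome spans, and 7.78 liver peaks per Mb (4.25 to 13.0), against 2.71. With the distance widened to 200 kb the uterus density was 35.3 per Mb, but the liver density was 4.69 (2.62 to 7.73), an interval that includes the value of the whole list. There were 21 uterus peaks and 4 liver peaks at Greb1, 14 and 1 at Igf1, 13 and 1 at Wnt4, 10 and 1 at Pgr, 8 and 2 at Myc, 1 and 5 at Ccnd1, and 1 and 0 at Ltf. The uterus count was thus 4.86 times the liver count (2.71 to 9.35), and the same ratio over the whole lists was 3.58, inside that interval. The list ratio stayed inside the interval when Pgr, Greb1, Igf1, Wnt4, Myc or Ltf was left out. Only without Ccnd1, the locus with more liver peaks, did the interval exclude it, at a ratio of 7.44 (3.70 to 17.0). That single omission does not show a uterus excess beyond the list ratio at the loci as a set.

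**Figure D1:**
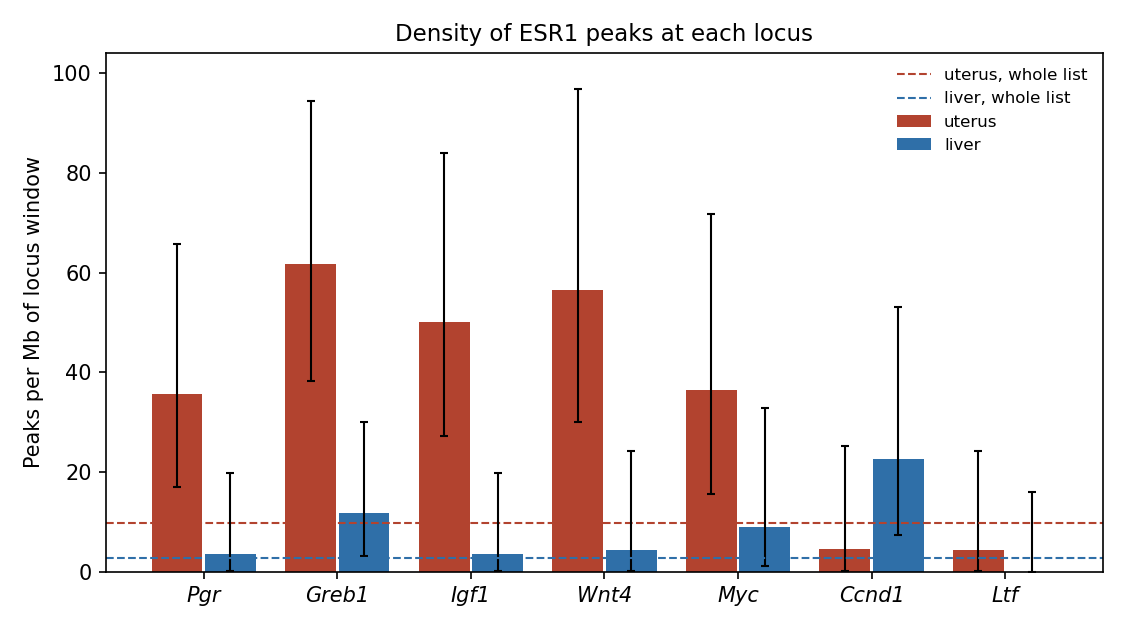
Peaks per Mb of locus window (vertical axis) at the 7 genes, in uterus and liver; bars are counts from 1 library divided by window length, whiskers are 95% Poisson intervals, and dashed lines are the densities of the whole lists. Uterus bars reach from 35.7 to 61.8 at Pgr, Greb1, Igf1, Wnt4 and Myc and stand at 4.55 and 4.35 at Ccnd1 and Ltf, where only Ccnd1 has the taller liver bar, at 22.7.

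Few of these sites were called in both tissues. A peak was counted as shared when it had at least 1 bp in common with a peak called in the other tissue. Sharing was found for 4 of the 14 liver peaks, or 28.6% (Clopper-Pearson interval 8.39 to 58.1), against 23.7% of the whole liver list. It was found for 4 of the 68 uterus peaks, or 5.88% (1.63 to 14.4), against 6.58% of the whole uterus list. Both shares were thus near those of the lists. Their intervals also include shares well above and below the list values, so a difference at these loci could not be judged.

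A minority of very strong peaks stood out among the uterus peaks, while the typical peak did not. Fold enrichment is the authors' ratio of ChIP signal to the local control in that peak, and serves here only for ranks inside a list. The median fold enrichment of the 68 uterus peaks was 14.4, beside 14.7 in the whole list, and 33 of them lay above the list's median. In the top 10% of the list by fold enrichment were 15 of the 68, or 22.1%, against 9.93% of all uterus peaks (tied values make this differ from 10%). A MACS score of at least 3100, at which many p-values appear to be stored as a stand-in, was held by 9 of the 68, or 13.2%, against 1.26% of all uterus peaks. These 9 peaks lay at Greb1 and Igf1 with 3 each, Pgr with 2 and Wnt4 with 1. The 15 peaks of the top 10% carried 64.4% of the 8995 uterus tags at the loci. In liver, 3 of the 14 peaks, or 21.4%, were in the top 10% of their list, where 693 of all 6932 stood. They lay 1 each at Pgr, Greb1 and Ccnd1. This share was close to the 22.1% in uterus but rests on fewer peaks. The median fold enrichment of the 14 was 13.2, beside 11.2 in the whole liver list.

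**Figure D2:**
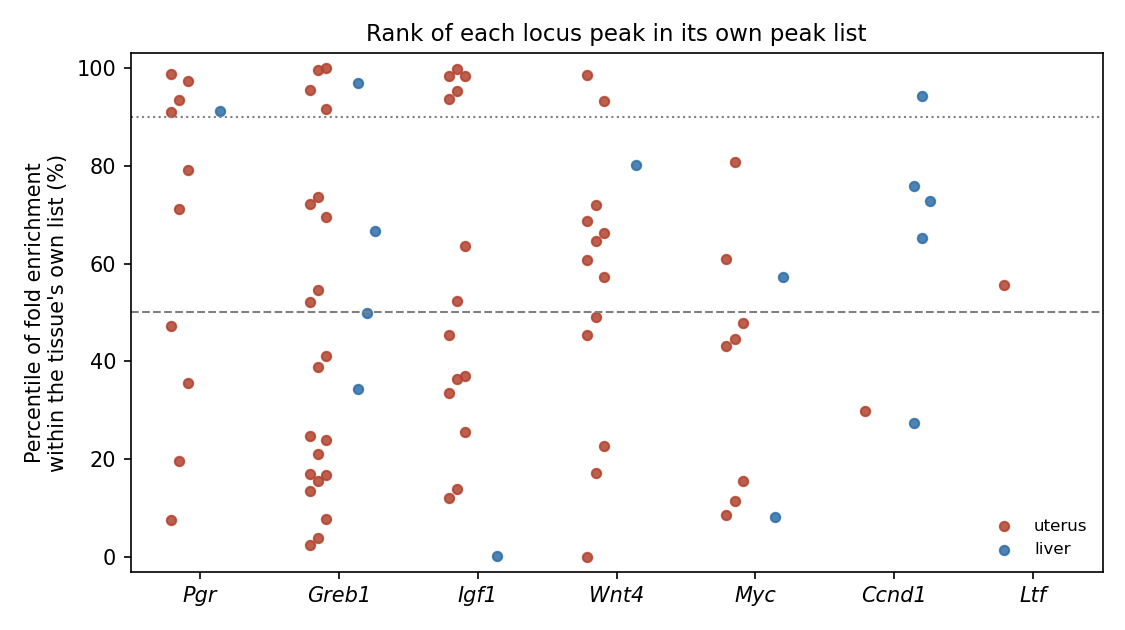
Percentile of each locus peak's fold enrichment within its own tissue's list (vertical axis, percent) by gene; each point is 1 peak, the dotted line marks the top 10% and the dashed line the list's middle. Uterus points above the dotted line number 4 at Pgr, 4 at Greb1, 5 at Igf1 and 2 at Wnt4, and none lies there at Myc, Ccnd1 or Ltf.

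Uterus peaks at the loci lay close together, a measure that rises with density. Another uterus summit lay within 10 kb of 43 of the 68, or 63.2%, against 47.5% of the whole list. The loci held 37.8 uterus peaks per Mb and the list 9.72, so these shares come from unlike densities. Closeness beyond that given by density was not tested. This held for 12 of 14 at Igf1, 10 of 13 at Wnt4, 14 of 21 at Greb1 and 5 of 10 at Pgr, but for 2 of 8 at Myc. In liver, 6 of the 14 peaks had another liver summit within 10 kb, or 42.9%, against 40.3% of the list; 4 of these were at Ccnd1 and 2 at Greb1.

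**Figure D3:**
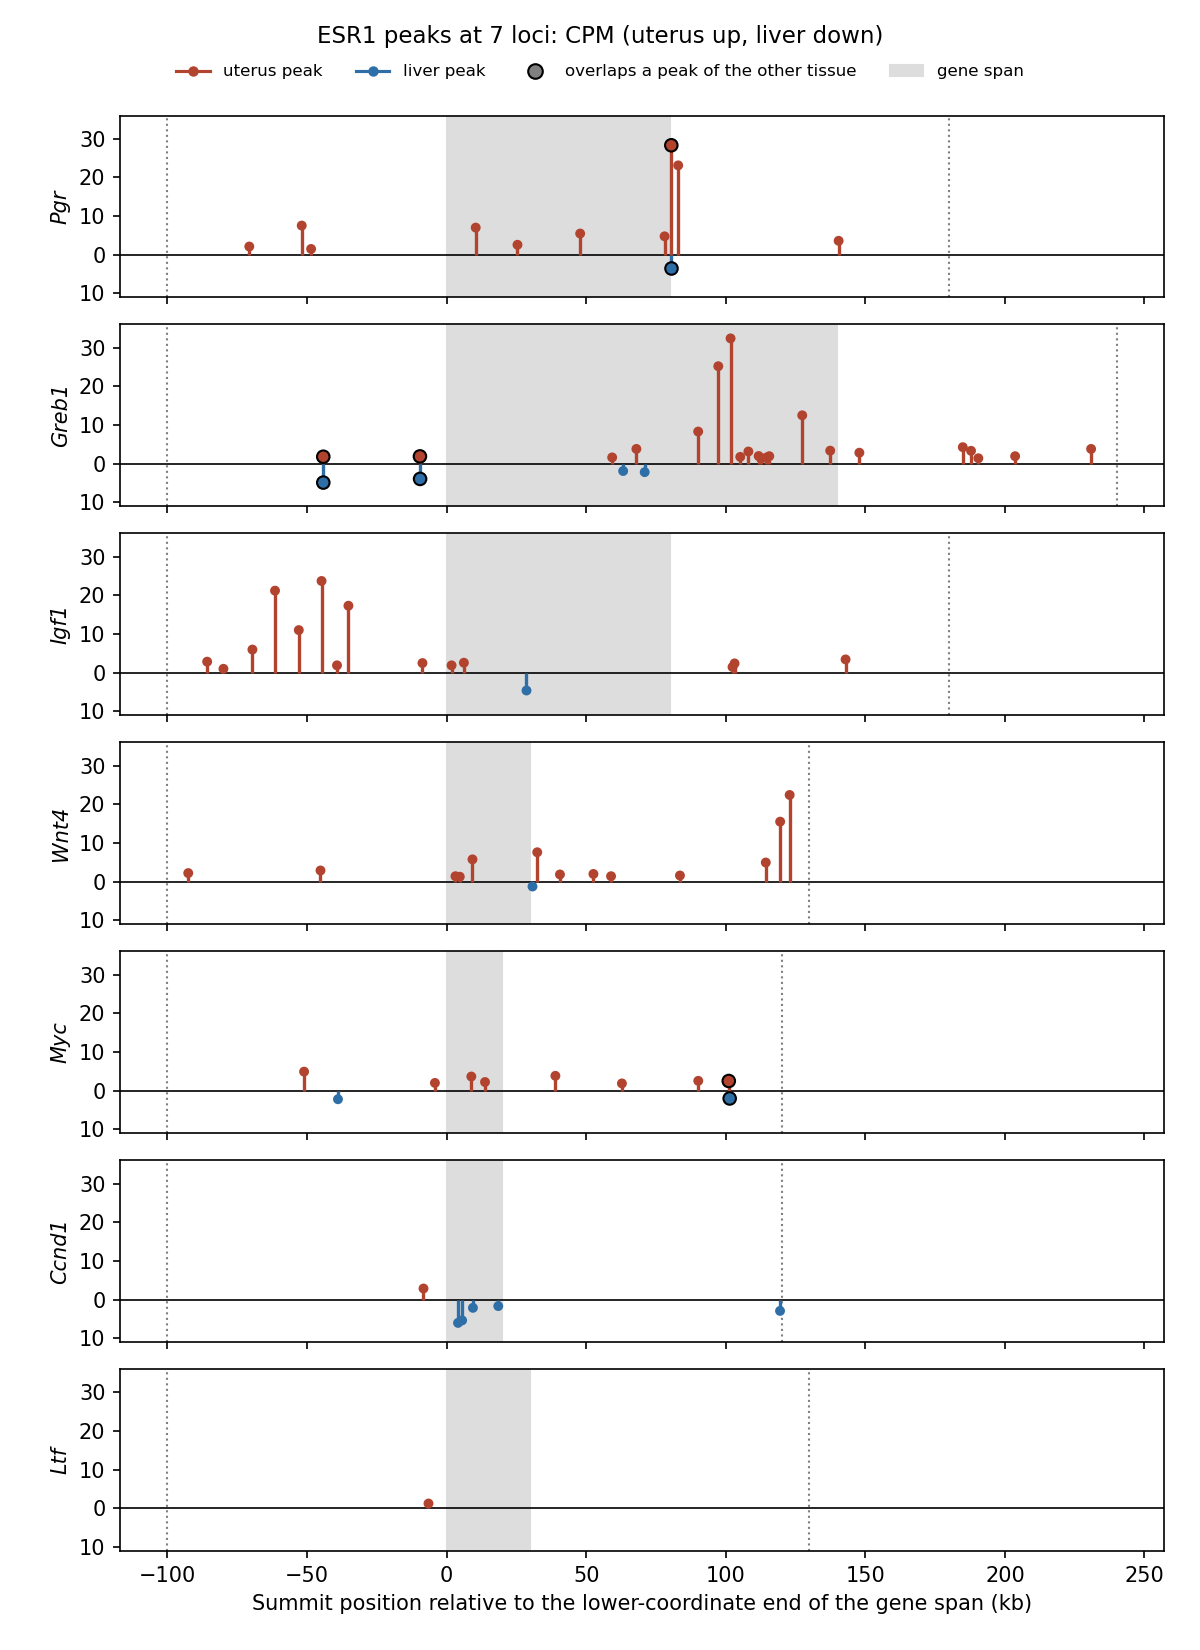
Peaks at each of the 7 loci, placed by distance of the summit from the lower-coordinate end of the gene span (horizontal axis, kb), with height in CPM (tags per 1000000 unique tags of the library) (uterus upward, liver downward, 1 library each); grey marks the gene span, dotted lines the window edges, and black-rimmed points overlap a peak of the other tissue. The tallest uterus peaks stand in groups at the higher end of the Pgr span and inside the Greb1 span. Further groups of them stand on the lower side of Igf1 and near the higher window edge of Wnt4. At Ccnd1 the group inside the span is a liver one.

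Pgr encodes the progesterone receptor, itself a nuclear receptor through which the uterus answers to progesterone. The span used was 8.89 to 8.97 Mb of chromosome 9 in mm9. Pgr is read on the plus strand in the RefSeq table, so that the gene starts at the lower-coordinate end. All spans used here are rounded to 10 kb and could not be checked against an mm9 annotation. The 10 uterus peaks gave 35.7 per Mb, and 5.57% of consecutive windows of 280 kb across the genome held as many; such windows also cover gene-poor stretches, so they are not a comparison with other genes. In liver 1 peak was called there, and 30.3% of those windows held at least 1. The strongest uterus peak lay at 8969779 to 8970966, with its summit 0.499 kb beyond the higher end of the span. It held 631 tags, or 28.3 CPM (tags divided by the unique tags of the library and multiplied by 1000000), at 84.7-fold enrichment, rank 292 of the list.

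The single liver peak at Pgr, at 8970192 to 8970830, lay wholly inside that strongest uterus peak, with summits 20 bp apart. It held 68 tags, or 3.40 CPM (2.64 to 4.31), at 21.3-fold enrichment, rank 619 in liver. By CPM the uterus peak was 8.33 times higher (6.48 to 10.9); it was also wider, at 1188 against 639 bp, and per kb of peak the ratio was 4.48. This site thus had the most tags of any peak at the locus in uterus and was the sole site found in liver. In the whole lists, called peaks took in 8.80% of tags for uterus but 2.42% for liver. CPM allows neither for this difference nor for background tags. The CPM ratios between tissues given here therefore do not measure binding at a site alone.

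A second strong uterus peak, at 8972410 to 8973443, lay 2.47 kb farther out, with 515 tags at 67.2-fold, and had no liver peak over it. Inside the span were 4 uterus peaks, the one of highest fold enrichment at 8937509 to 8938148 with 122 tags at 46.4-fold. The peak inside the span nearest its lower end, at 8899999 to 8900703, had the most tags of the 4, 156, at 25.1-fold. On the lower side lay 3 peaks, led by one at 8837526 to 8838368 with 168 tags at 39.3-fold, 51.9 kb from the span. The remaining uterus peaks of the locus ranged from 33 to 106 tags.

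Greb1, whose product binds ESR1 as a cofactor, held the most peaks of the 7 loci. Its span was 16.67 to 16.81 Mb of chromosome 12, read on the minus strand in the RefSeq table, so that its 5′ end is the higher-coordinate one. The 21 uterus peaks gave 61.8 per Mb, and 0.626% of consecutive windows of 340 kb held as many. The 4 liver peaks gave 11.8 per Mb, and 8.78% of these windows held at least 4. Of the uterus peaks, 13 lay inside the span.

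The uterus peak of highest fold enrichment at any of the loci lay at Greb1, at 16797129 to 16797809, 12.6 kb inside the higher-coordinate end. It had 279 tags at 148-fold and ranked 6 of 24836. The peak with the most tags, at 16770591 to 16772561, held 722 tags at 108-fold, rank 89, and was also the widest at 1971 bp. Beside it, at 16766817 to 16767922, lay a peak of 563 tags at 54.8-fold, and at 16759833 to 16760875 one of 185 tags at 40.9-fold. These 4 peaks carried 65.3% of the locus's 2678 uterus tags. No liver peak overlapped any of them, which was the usual case, since 6.58% of the whole uterus list overlapped a liver peak. Their distances to a liver summit were 19.2 to 56.4 kb.

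The liver peaks at Greb1 lay elsewhere. Both liver peaks on the lower-coordinate side coincided with uterus peaks, and at both the liver library had more tags. At the first, 44.2 kb from the span, liver had 98 tags (16625299 to 16626075, 13.3-fold) and uterus 40 (16625427 to 16626065, 6.58-fold), with summits 7 bp apart. This came to 4.90 CPM in liver (3.97 to 5.97) and 1.79 in uterus (1.28 to 2.44), a liver level 2.73 times higher (1.87 to 4.05).

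At the other, 9.50 kb from the span, liver had 79 tags at 31.0-fold (16660342 to 16660833) and uterus 42 at 10.6-fold (16660218 to 16660740), with summits 50 bp apart. By CPM the liver level was 2.10 times the uterus level (1.42 to 3.12). The liver peak ranked 219 of 6932 by fold enrichment, the best rank of the 14 liver peaks. Their uterus counterparts stood low in their own list, at percentiles 2.6 and 23.9.

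The other 2 liver peaks at Greb1 lay inside the span without a uterus peak over them. They held 38 tags at 9.71-fold (16732981 to 16733446) and 44 tags at 11.2-fold (16740733 to 16741279). Uterus summits were near, at 3.93 and 2.97 kb. The remaining uterus peaks of the locus held 29 to 95 tags at 6.99- to 21.8-fold.

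Igf1 encodes a secreted growth factor that mediates growth responses in the uterus and is also made in large amounts by the liver. Its span was 87.32 to 87.40 Mb of chromosome 10, read on the plus strand in the RefSeq table. The 14 uterus peaks gave 50 per Mb, and 1.83% of windows of 280 kb held as many. Most lay before the gene, with 9 on the lower-coordinate side, 2 inside the span and 3 beyond it.

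A run of strong uterus peaks lay 35.2 to 69.6 kb before the span, where the 5 peaks of the top 10% by fold enrichment carried 80.0% of the locus's 2207 uterus tags. The leading one, at 87274721 to 87275653, held 528 tags, or 23.7 CPM, at 115-fold, rank 57. Next in tags came a peak at 87257969 to 87259233 with 472 tags at 76.0-fold and one at 87284309 to 87285203 with 386 tags at 77.9-fold. The other two held 246 tags at 46.6-fold and 133 tags at 53.9-fold. By contrast the peaks inside the span were modest: 42 tags at 10.8-fold, with the summit 1.78 kb from the lower end, and 57 tags at 15.2-fold.

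In liver the sole Igf1 peak lay inside the span at 87347973 to 87348861, away from every uterus peak by at least 22.4 kb between summits. It held 91 tags, or 4.55 CPM, but its fold enrichment over the local control was only 4.69, rank 6922 of 6932. By tags it stood at percentile 82.2 of the liver list and by fold enrichment at percentile 0.2. The nearest liver summit to any of the 5 strong uterus peaks was 63.8 kb away. Such absence was common: 30.3% of windows of 280 kb held any liver peak. Of the whole uterus list, 6.58% overlapped a liver peak.

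Wnt4 encodes a secreted signal needed for the female reproductive tract and for the uterine response to implantation. Its span was 136.83 to 136.86 Mb of chromosome 4, read on the plus strand in the RefSeq table, and the RefSeq neighbourhood also holds Cdc42. The 13 uterus peaks gave 56.5 per Mb, and 1.43% of windows of 230 kb held as many. The strongest, at 136952463 to 136953676, lay 92.9 kb beyond the span near the edge of the window; it held 500 tags, or 22.4 CPM, at 81.9-fold, rank 343. Its neighbour 3.40 kb away held 345 tags at 45.2-fold, and together they carried 53.7% of the locus's 1575 uterus tags.

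Closer to Wnt4 the uterus peaks held fewer tags. Inside the span lay 3, with 31, 28 and 128 tags at 17.2-, 9.63- and 14.5-fold. A peak 2.47 kb beyond the span (136861643 to 136862789) held 169 tags at 21.1-fold. One uterus peak at 136943786 to 136944842 combined 110 tags with 4.21-fold enrichment, the lowest of the 68.

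The liver peak at Wnt4, 1 being held by 26.6% of windows of that length, lay 0.530 kb beyond the span at 136860330 to 136860684. It had 23 tags, the fewest of the 14 liver peaks, at 16.1-fold. Its summit was 1.94 kb from that of the uterus peak of 169 tags, and the peaks did not overlap.

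Myc encodes a transcription factor that drives cell growth and division and answers quickly to estrogen. Its span was 61.81 to 61.83 Mb of chromosome 15. The 8 uterus peaks gave 36.4 per Mb and the 2 liver peaks 9.09 per Mb; 6.17% of windows of 220 kb held at least 8 uterus peaks and 13.8% at least 2 liver peaks. Unlike the 4 loci above, Myc had no uterus peak in the top 10% of the list. The strongest, at 61758598 to 61759328, lay 51.1 kb on the lower side and held 109 tags at 26.2-fold, rank 4758.

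The uterus peaks inside the Myc span held 81 tags at 8.68-fold (61818177 to 61819187) and 49 tags at 14.3-fold (61823498 to 61824087). The others ranged from 41 to 85 tags. All 8 were thus in a narrow range of tags, where the peaks at Greb1 ranged from 29 to 722.

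The Myc peak called in both tissues lay 81.1 kb beyond the span, with 55 tags at 8.15-fold in uterus (61910735 to 61911462) and 41 tags at 7.18-fold in liver (61911062 to 61911648). By CPM these were 2.47 (1.86 to 3.21) and 2.05 (1.47 to 2.78), a ratio of 1.20 whose interval of 0.789 to 1.85 includes equality. The summits were 325 bp apart, farther than the 7 to 50 bp at the other shared sites and than the median of 38 bp over all 1651 overlapping pairs. The other liver peak lay 38.9 kb on the lower side (61770826 to 61771316), with 45 tags at 12.0-fold, and the nearest uterus summit was 12.1 kb away.

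**Figure D4:**
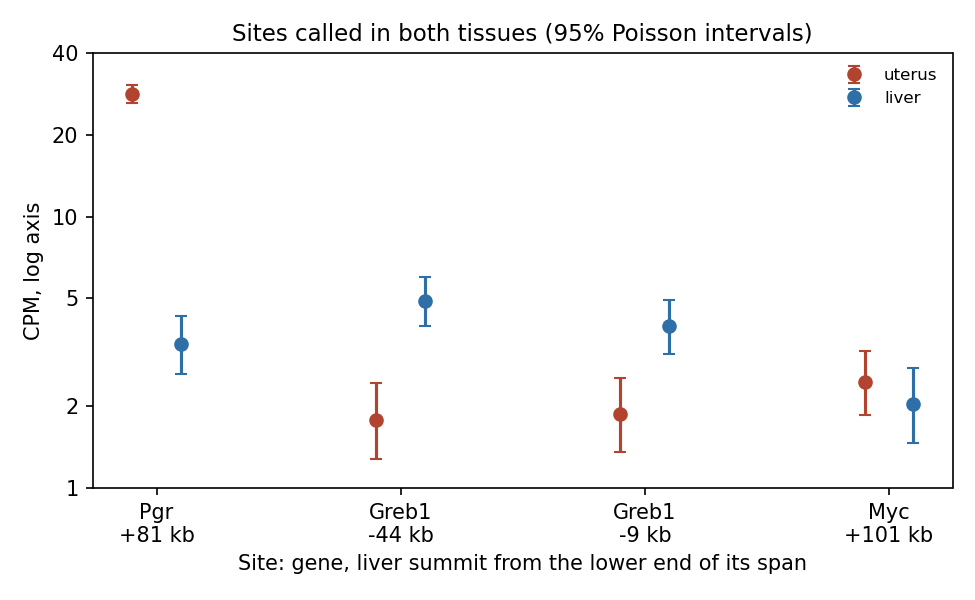
CPM (vertical axis, log scale) in uterus and liver at the 4 sites called in both tissues, named by gene and by distance of the liver summit from the lower end of the gene span; points are single libraries and whiskers 95% Poisson intervals. Uterus is higher at Pgr (28.3 against 3.40), liver is higher at both Greb1 sites (4.90 against 1.79 and 3.95 against 1.88), and the intervals overlap at Myc.

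Over the 4 shared sites the direction differed from site to site. Uterus was above liver at Pgr and liver above uterus at both Greb1 sites. Over all 1651 overlapping pairs, the uterus peak had the higher CPM in 45.1%. Summed over the 4 sites the uterus level was 2.41 times the liver level (2.10 to 2.77), but this rested on Pgr: without it the ratio was 0.564 (0.452 to 0.702). Without the Greb1 sites it was 5.65. None of these ratios allows for the larger share of tags that fell in called peaks in the uterus library.

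Ccnd1 encodes cyclin D1, which carries cells from the first gap phase toward DNA synthesis. Its span was 152.11 to 152.13 Mb of chromosome 7. It was the only one of the 7 loci with more liver than uterus peaks. The 5 liver peaks gave 22.7 per Mb (7.38 to 53.0), and 2.86% of windows of 220 kb held as many; 1 uterus peak was called, and 60.5% of these windows held at least 1.

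Of the 5 liver peaks at Ccnd1, 4 lay inside the span used. That span is rounded to 10 kb, so whether they lie within the gene itself could not be checked. The one with the most tags, at 152113364 to 152114426, held 121 tags, or 6.05 CPM (5.02 to 7.22), at 15.0-fold, the most tags of the 14 liver peaks. The strongest by fold enrichment, at 152115226 to 152116014, held 108 tags at 24.8-fold, rank 402, with its summit 1.47 kb from the first. The other two inside the span held 43 tags at 9.12-fold (152119168 to 152119686) and 34 tags at 14.3-fold (152128264 to 152128800).

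The fifth liver peak (152229173 to 152229847, 59 tags, 13.1-fold) lay 99.5 kb beyond the Ccnd1 span, just inside the limit of 100 kb. The RefSeq neighbourhood of Ccnd1 also holds Fgf3, Fgf4, Fgf15 and LTO1, so a peak in the window need not belong to Ccnd1. The same holds at Greb1, with Lpin1, Ntsr2, E2f6 and Rock2, at Ltf, with 5 further genes, at Pgr, with Arhgap42, and at Wnt4. The uterus peak lay outside the span, 8.54 kb on the lower side (152100715 to 152101698). It held 67 tags at 11.4-fold, rank 17395, and was 12.6 kb from the nearest liver summit. The 5 liver peaks were all without an overlapping uterus peak, a shared part of 0% (Clopper-Pearson interval 0 to 52.2). That interval includes the 23.7% shared in the whole liver list, so the absence does not set Ccnd1 apart.

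Ltf encodes lactoferrin, a secretory protein of the uterine epithelium that estrogen raises strongly in mice. Its span was 110.92 to 110.95 Mb of chromosome 9, read on the plus strand in the RefSeq table. Among the 7 loci it had the fewest peaks: 1 in uterus and none in liver, where 61.7% of windows of 230 kb held at least 1 uterus peak. The uterus peak lay 6.75 kb on the lower side, at 110912998 to 110913354. It held 33 tags, or 1.48 CPM (1.02 to 2.08), at 16.0-fold, rank 11037, with no liver summit closer than 133 kb.

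The limit of 100 kb fell among further uterus peaks at several loci. The nearest uterus peak outside it lay at 102 kb from Ltf (75 tags, 9.53-fold), 105 kb from Myc (44 tags, 16.0-fold), 107 kb from Greb1 (43 tags, 16.0-fold), 113 kb from Wnt4 (73 tags, 15.6-fold), 117 kb from Igf1 (307 tags, 47.4-fold) and 123 kb from Pgr (33 tags, 8.34-fold). Between 100 and 200 kb from the spans lay 16 more uterus peaks at Pgr, 11 at Wnt4, 5 each at Igf1, Myc and Ltf and 3 at Greb1, against 1 liver peak over all 7 loci, 139 kb from Ltf. No further peak of either tissue lay there at Ccnd1.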

How the data were processed

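ESR1 ChIP-seq peak lists of 1 liver and 1 uterus library were analysed. Per the submitters' processing notes, the authors called peaks with MACS 1.3.7.1 on mm9. Per the file headers, each library had 1 control, tags of 50 bp and a p cutoff of 1e-10; unique tags were 20016495 in liver and 22298008 in uterus. The sources used here name no aligner. The deposited tags are raw counts per peak, fold enrichment is a ratio to the local control, the deposited score is minus 10 log10 p as MACS writes it, and the false discovery rate is deposited as a percent. CPM, the tags per 1000000 unique tags of the library, was computed here.

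The members and lists were chosen with earlier results of these data known. Summits were taken as start plus summit offset minus 1. Named were all liver peaks, all shared sites, and in each locus the uterus peaks of highest fold enrichment, of most tags and nearest the span; other peaks given individually were chosen after their values were seen. Shares have exact Clopper-Pearson intervals, counts exact Poisson intervals, and ratios of counts exact conditional binomial intervals. Consecutive windows tiled each chromosome between its outermost peaks. The counting steps were tested on simulated data. RefSeq tables (GRCm38.p6) gave promoter sequence, strand and neighbouring gene names, matched by symbol; the planned list of further estrogen response genes was not analysed here, since it needs an mm9 annotation. Alternatives were other distances, thresholds, overlap rules, list lengths, depth scalings, peak middles and leaving out each locus. The work used Python 3.11.15 with scipy 1.17.1, numpy 2.4.6, matplotlib 3.10.9 and pandas 2.3.3.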

Additional observations from a re-analysis of the deposited data

How the results depend on the processing

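Of 60 recomputed values of the main comparisons, 49 stayed inside the interval of the reported value. The differences between uterus and liver counts at single loci were judged by their factor of change, not by an interval. The 2 tallies therefore cannot be compared. Of 42 recomputed differences, 26 stayed close to the reported value, 15 moved and 1 changed sign. At a MACS score of at least 200 there were 22.2 uterus and 3.33 liver peaks per Mb, 4.24 and 3.01 times the densities of the equally shortened lists; the median fold enrichment in uterus was 20.9, and Pgr was the sole shared site, with a uterus level 8.33 times the liver level. At a fold enrichment of at least 10 the uterus density was 28.9 per Mb and the ratio at shared sites 4.11. With the uterus list cut to the 6932 peaks of highest fold enrichment, its density was 10.6 per Mb, 3.89 times that of the cut list, and 7.14% of the liver peaks were shared; at Myc the uterus list then held 1 peak and the liver list 2, a difference of -1, at Greb1 6 and 4, and at Wnt4 2 and 1. Each of these settings also shortened a list, and why the values changed was not tested. Per kb of peak the ratio at shared sites was 1.95. Leaving out a locus was tried for that ratio after the data had been seen: it was 0.564 without Pgr and 5.65 without Greb1. Within 200 kb of the spans there were 113 uterus and 15 liver peaks; the liver density was 4.69 per Mb (2.62 to 7.73), 1.73 times that of the list, against 2.87 times within 100 kb, and Ltf held 6 uterus peaks. Liver outnumbered uterus at Ccnd1 under each distance, threshold and list length tried. No paired analysis was possible because each tissue has 1 library. A site missing from the liver list may lie under the cutoff; the called liver peak with the fewest tags held 18.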

Other observations

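Among the 14 liver peaks at the loci the deposited false discovery rate was 0.23% at the Ccnd1 peak with a MACS score of 577 and 0.19% at the Greb1 peak with a score of 522, and 0.01% at the Myc peak with a score of 101. In uterus it was 0 at all 68 peaks, as rounded in the list.

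A few peaks had many tags and low enrichment over control. Besides the liver peak inside the Igf1 span (91 tags, 4.69-fold), this held for the Wnt4 uterus peak of 110 tags at 4.21-fold. That Wnt4 peak ranked near the end of its list by fold enrichment while standing at percentile 82.8 by tags.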
